A study of Homo sapiens with 12 samples.

Results

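The mRNAs of 6 enzymes that make asparagine, proline, aspartate, alanine and phosphoenolpyruvate were followed in HK-2 cells exposed to CsA. They were ASNS, PYCR1, ALDH18A1, PCK2, GPT2 and GOT1, chosen by name, with earlier results of these data known. Where several probe sets named a gene, the brightest on average was read. Of the 6 genes, 5 had a named probe set among 19775 genes named on the array, and those 5 were among the 10508 genes tested. GPT2, the mitochondrial alanine aminotransferase, was not analysed here.

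HK-2 is an immortalised line of human proximal tubule epithelium, and CsA is cyclosporine A, a calcineurin inhibitor used against graft rejection and known to harm the kidney. The 4 groups were CsA for 12 h, control vehicle for 12 h, CsA for 48 h and control vehicle for 48 h, each with 3 biological replicates on Affymetrix expression arrays. All 12 cultures shared the same medium, with epidermal growth factor, hydrocortisone, insulin, transferrin, selenite and stabilised glutamine, and all were near confluence when treated. The dose of CsA is not given in the labels used here. All groups came from a single cell line. Which cultures share a replicate number is not explained in the labels, so p-values measure the spread between these samples. In such bulk RNA, fewer expressing cells and less RNA per cell cannot be told apart.

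ASNS makes asparagine from aspartate, taking the nitrogen of glutamine. ALDH18A1 turns glutamate into pyrroline-5-carboxylate and PYCR1 reduces that to proline, both in mitochondria. PCK2 makes phosphoenolpyruvate from oxaloacetate in mitochondria, and GOT1 exchanges the amino group between aspartate and glutamate in the cytosol. ASNS is a classic target of ATF4, a transcription factor whose translation increases when amino acids run short or unfolded protein accumulates, and ATF4 is also known to act on PCK2, PYCR1 and ALDH18A1.

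Sequences upstream of the start site are shown because known response elements of ASNS lie there. They are from RefSeq, build GRCh38.p14, and cover the 250 bases before the start, 5′ to 3′ along the gene. Of the 5 measured genes, 4 had an entry, the exception being PYCR1. The ASNS stretch is chr7:97872409-97872658 on the minus strand, the GOT1 stretch chr10:99430625-99430874 on the minus strand, the PCK2 stretch chr14:24094061-24094310 on the plus strand and the ALDH18A1 stretch chr10:95656712-95656961 on the minus strand. Capitals mark TGATGNAA on either strand (the core that ATF4 and C/EBP proteins bind together), its longer form TGATGAAAC and the letters GTTACA. TGATGAAAC and GTTACA are known in ASNS as nutrient-sensing response elements 1 and 2.
ASNS: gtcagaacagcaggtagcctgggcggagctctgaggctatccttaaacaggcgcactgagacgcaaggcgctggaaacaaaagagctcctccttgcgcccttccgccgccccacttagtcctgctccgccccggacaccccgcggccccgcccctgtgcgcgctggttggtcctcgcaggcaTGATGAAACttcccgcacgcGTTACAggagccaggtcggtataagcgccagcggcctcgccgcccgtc
GOT1: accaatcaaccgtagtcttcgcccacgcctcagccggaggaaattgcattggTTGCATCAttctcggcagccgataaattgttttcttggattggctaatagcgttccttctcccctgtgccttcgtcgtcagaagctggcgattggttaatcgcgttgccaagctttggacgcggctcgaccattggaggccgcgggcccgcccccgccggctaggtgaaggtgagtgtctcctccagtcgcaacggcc
PCK2: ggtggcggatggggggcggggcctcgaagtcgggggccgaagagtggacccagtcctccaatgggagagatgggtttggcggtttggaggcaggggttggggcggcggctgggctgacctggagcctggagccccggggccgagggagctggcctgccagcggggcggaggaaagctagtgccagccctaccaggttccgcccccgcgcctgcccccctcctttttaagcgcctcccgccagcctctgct
ALDH18A1: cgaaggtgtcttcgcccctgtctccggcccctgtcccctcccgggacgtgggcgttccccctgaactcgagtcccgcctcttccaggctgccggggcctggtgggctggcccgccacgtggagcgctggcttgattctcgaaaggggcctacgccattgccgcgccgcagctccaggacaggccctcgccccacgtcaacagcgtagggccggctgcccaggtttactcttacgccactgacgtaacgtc
In ASNS, TGATGAAAC lies at -68 to -60 and GTTACA at -48 to -43, counted from the base before the start as -1. TGATGAAAC was present in 0.225% of 35116 RefSeq windows of 300 bases (250 before to 50 after a start), GTTACA in 6.66% and TGATGNAA, which TGATGAAAC contains, in 3.62%, each on both strands. In GOT1 the core lies on the opposite strand, as TTGCATCA at -198 to -191. The PCK2 and ALDH18A1 stretches held none of these letters, nor did the 250 bases before a second RefSeq start of ASNS, chr7:97872166-97872415. The PCK2 stretch overlaps the annotated gene, which begins at 24094171, so the sequence before that outermost position was read only in part. Both ASNS stretches lie within the annotated gene, which spans 97851677 to 97928441. These matches are descriptions of the sequence only.

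Values are log2 expression after GCRMA background adjustment and normalisation, and levels are compared for each gene across arrays, not between genes. Array medians lay between 2.85 and 2.96. Of 10 markers of epithelium and the kidney line, 9 were above 4 on every array, KRT8, KRT18, EPCAM and PAX8 among them, whereas 9 of the 10 measured markers of differentiated proximal tubule, including LRP2, CUBN, SLC34A1 and AQP1, were below 4 on all 12 arrays. All 4 measured leukocyte markers were below 4 throughout. Of 6 fibroblast and pericyte markers, COL1A1, DCN and LUM were above 4 on every array, with DCN between 7.67 and 9.97, and so were the endothelial PECAM1, the collecting duct's AQP2 and the podocyte's PODXL. One array stood apart from its group. CsA 48 h replicate 3 differed from the other CsA 48 h arrays by a root mean square of 0.736 over the tested genes, against 0.480 from the CsA 12 h arrays, 0.606 from the control 48 h arrays and 0.512 from the control 12 h arrays. Over the 5 enzymes the same array was nearest to the control 12 h arrays, at 0.339, and lay 2.19 from the other CsA 48 h arrays. The 48 h results are therefore given with and without it.

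At 12 h, ASNS and PCK2 were higher on each CsA array than on each control array, PYCR1 was slightly higher within every numbered pair, and GOT1 and ALDH18A1 were close to their controls. None of these differences passed the test across all genes, whose spread was estimated over all 12 arrays. ASNS was at 11.53, 9.68 and 11.41 in CsA-treated cells (replicates 1 to 3), against 9.33, 8.43 and 9.52 in controls. The lowest CsA value lay above the highest control value, but by little, since replicate 2 was the lowest of both groups.

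Within numbered pairs the ASNS difference, CsA minus control, was 2.19, 1.26 and 1.89, that is 4.57-fold, 2.39-fold and 3.71-fold. The group means were 10.87 ± 1.03 with CsA and 9.09 ± 0.59 in controls (SD, n = 3 each). Their difference of 1.78 (SE 0.92, 95% interval -0.26 to 3.82) is 3.43-fold, and limma's adjusted p was 1. That SE holds the spread of the 48 h arrays too. Without CsA 48 h replicate 3 it was 0.48, and ASNS was again not called. Only 10 of the 10508 tested genes were higher with CsA by at least 1 in each of the 3 pairs at 12 h, and ASNS was among them. The cut-off of 1 was not among the planned thresholds, so this count is a description only.

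PCK2 was at 9.22, 8.20 and 9.21 in CsA-treated cells at 12 h, against 7.97, 7.87 and 8.01 in controls. The 3 controls were within a narrow band and every CsA value lay above it, replicate 2 least. The pairs differed by 1.25, 0.33 and 1.20, and the means, 8.88 ± 0.59 with CsA and 7.95 ± 0.07 in controls (SD, n = 3 each), by 0.93 (SE 0.64, limma's adjusted p 1). Without CsA 48 h replicate 3 this SE was 0.31, and PCK2 was again not called.

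The proline enzymes moved less. PYCR1 was at 8.86, 8.46 and 8.92 in CsA-treated cells at 12 h, against 8.40, 8.40 and 8.68 in controls, so the groups overlapped although each pair differed upward, by 0.47, 0.06 and 0.23. Its mean difference was 0.25 (SE 0.32, limma's adjusted p 1). ALDH18A1, upstream of PYCR1 in the same pathway, was at 10.58, 10.47 and 10.61 in CsA-treated cells, against 10.56, 10.49 and 10.74 in controls, with pair differences of 0.02, -0.02 and -0.13. The 95% interval of its mean difference in the fit over all arrays was -0.32 to 0.24, so that fit could not exclude changes within those bounds. Its second probe set gave pair differences of -0.05, -0.15 and -0.10.

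GOT1, the aspartate aminotransferase of the cytosol, was at 11.14, 11.20 and 10.94 in CsA-treated cells at 12 h, against 10.95, 11.13 and 10.94 in controls. The groups overlapped, and replicate 3 was the lowest in both. The mean difference was 0.09 (SE 0.16, 95% interval -0.28 to 0.45).

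**Figure D1:**
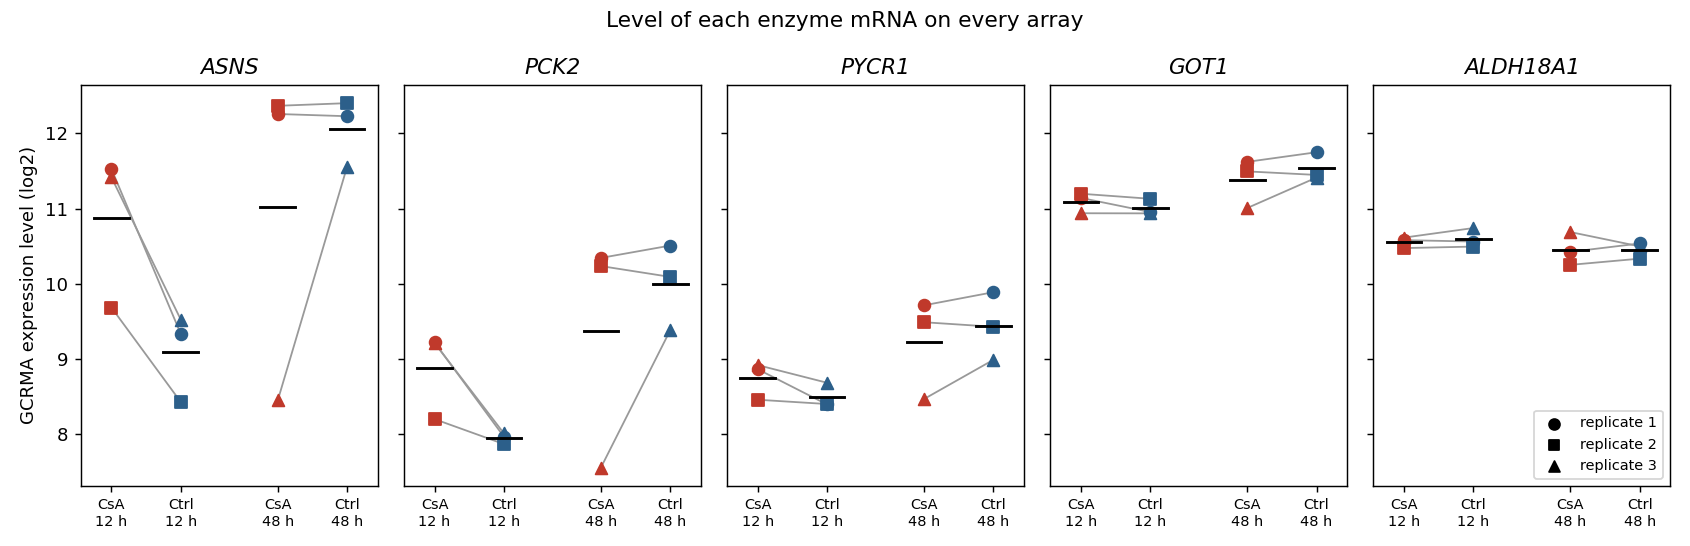
Log2 expression (vertical axis) of the 5 measured enzymes on each of the 12 arrays, with CsA left of control at each time, same-numbered arrays joined by lines and group means as bars. ASNS and PCK2 in CsA-treated cells at 12 h lie above all 12 h controls, and CsA 48 h replicate 3 lies far below the other CsA 48 h arrays for both.

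Read across the list, 0 of 5 enzymes were called at 12 h, where 0% of the 10508 tested genes were called higher and 0% lower by limma, 138 of them having an unadjusted p under 0.05. With every array of one group compared with every array of the other, 2 of 5 enzymes (ASNS and PCK2) lay wholly above their controls and none wholly below, against 5.37% and 6.57% of tested genes. The difference was above 0 in all 3 pairs for 4 of 5 enzymes, GOT1 in pair 3 by only 0.0017, against 18.9% of tested genes. The median difference was 0.25 over the 5 enzymes and -0.01 over all tested genes.

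The call for ASNS at 12 h depended on the model. Same-numbered CsA and control arrays deviated together, and with the replicate block in a fit of the 12 h arrays alone, with trended and robust moderation, ASNS was called (adjusted p 0.00428, limma), where 121 genes (1.15%) were higher and 33 (0.314%) lower. PCK2 missed the threshold in that fit, at an adjusted p of 0.0556. With the replicate block and all 12 arrays the adjusted p of ASNS was 0.569 and 3 genes (0.0285%) were called, all higher, and with the block in the 12 h arrays alone but standard moderation it was 0.103, with 5 genes (0.0476%) called, all higher. With the block but without the 48 h pair 3, an alternative chosen after seeing the data, the adjusted p of ASNS was 0.0233. When the second ASNS probe set, between 2.63 and 2.77 on all arrays, was averaged in, the difference was 0.91.

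At 48 h the enzymes differed between CsA and control in pairs 1 and 2 by at most 0.17 on the log2 scale, and pair 3 differed most for each of them. In pair 3 the CsA array was lower for ASNS, PCK2, PYCR1 and GOT1 and higher for ALDH18A1. ASNS was at 12.26, 12.37 and 8.45 in CsA-treated cells, against 12.23, 12.40 and 11.56 in controls. Replicate 3 with CsA was the only 48 h value in the range of the 12 h controls. The pairs differed by 0.03, -0.04 and -3.11, the last being 8.61-fold lower with CsA.

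PCK2 was at 10.34, 10.24 and 7.56 in CsA-treated cells at 48 h, against 10.51, 10.09 and 9.38 in controls, and the pairs differed by -0.16, 0.14 and -1.83. The value of 7.56 was the lowest of all 12 arrays for PCK2. PYCR1 was at 9.71, 9.49 and 8.47 in CsA-treated cells, against 9.89, 9.43 and 8.99 in controls. For PYCR1 replicate 3 was the lowest of both groups.

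GOT1 was at 11.62, 11.49 and 11.01 in CsA-treated cells at 48 h, against 11.75, 11.45 and 11.41 in controls, again with replicate 3 lowest in both. ALDH18A1 was at 10.42, 10.25 and 10.69 in CsA-treated cells, against 10.54, 10.33 and 10.50 in controls. It was the only enzyme of the 5 whose pair 3 differed upward, by 0.19, and in its second probe set that pair also differed upward, by 0.20. Pairs 1 and 2 of the second probe set differed by -0.24 and -0.06, so there pair 1 differed most.

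In the fit over all arrays the 48 h difference, CsA minus control, was -1.04 for ASNS (SE 0.92), -0.62 for PCK2 (SE 0.64), -0.21 for PYCR1, -0.16 for GOT1 and -0.0012 for ALDH18A1. None was called (limma's adjusted p 0.999 for each), where 0% of tested genes were called in either direction and 265 had an unadjusted p under 0.05. Without CsA 48 h replicate 3 the sign turned for 4 of the enzymes, to 0.25 for ASNS, 0.30 for PCK2, 0.17 for PYCR1 and 0.02 for GOT1, with adjusted p between 0.893 and 0.986 over the 5. With pair 3 left out whole, its control array included, no sign turned: ASNS differed by -0.0028, PCK2 by -0.01, PYCR1 by -0.06, GOT1 by -0.04 and ALDH18A1 by -0.10. None of the 5 enzymes lay wholly above or wholly below its controls at 48 h, against 2% and 2.49% of tested genes.

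**Figure D2:**
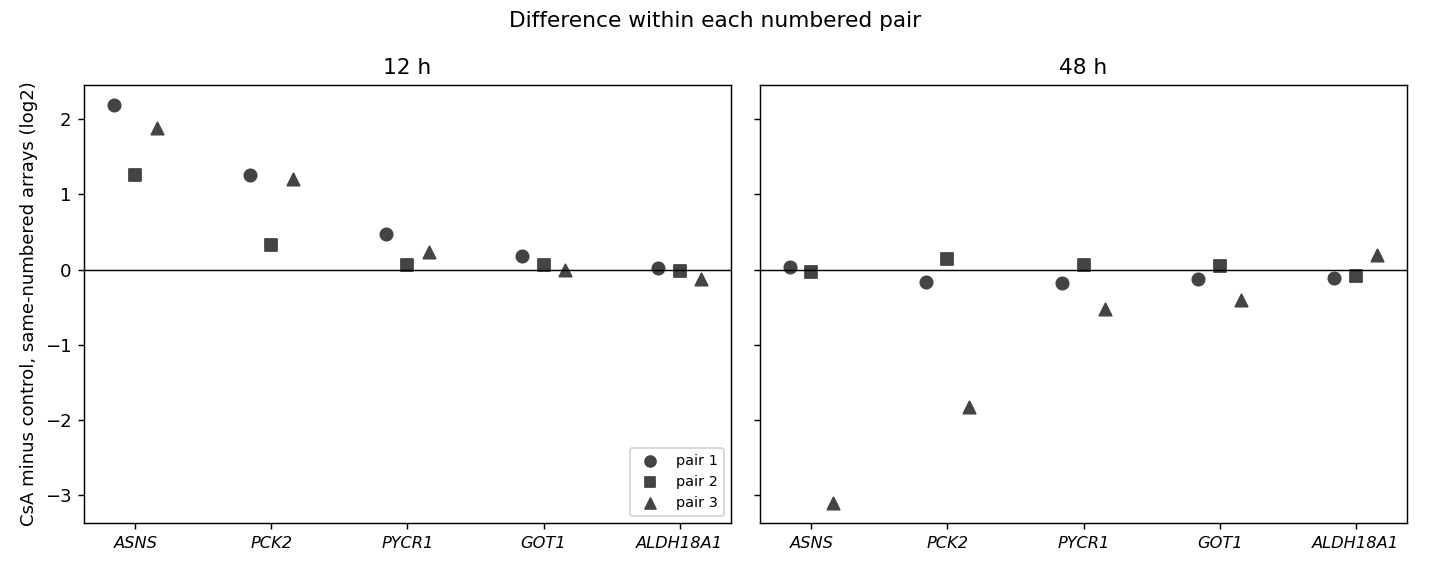
Difference in log2 expression, CsA minus control, between same-numbered arrays (vertical axis) for the 5 enzymes at 12 h (left) and 48 h (right), one symbol for each pair. ASNS lies between 1.26 and 2.19 in the 12 h pairs, and at 48 h only pair 3 departs far from 0, at -3.11.

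Whether the CsA difference itself changed with time was tested as an interaction over the 12 arrays. It was -2.82 for ASNS (SE 1.30, 95% interval -5.70 to 0.07) and -1.54 for PCK2 (SE 0.91), against -0.46 for PYCR1, -0.25 for GOT1 and 0.04 for ALDH18A1. No enzyme and no other gene was called (limma's adjusted p 1, 162 of 10508 genes with an unadjusted p under 0.05). For ASNS the interaction was -1.53 without CsA 48 h replicate 3, and the adjusted p was at least 0.175 over 20 alternatives.

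The larger contrast for these genes was between times in the control cells. ASNS, PCK2 and GOT1 rose in vehicle-treated cells at 48 h relative to 12 h, and PYCR1 lay just outside the threshold. ASNS averaged 12.06 ± 0.45 in controls at 48 h and 9.09 ± 0.59 in controls at 12 h (SD, n = 3 each), a difference of 2.97 (SE 0.92, 7.82-fold, limma's adjusted p 0.0387). PCK2 averaged 9.99 ± 0.57 at 48 h and 7.95 ± 0.07 at 12 h, a difference of 2.05 (SE 0.64, 4.13-fold, adjusted p 0.0400).

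GOT1 averaged 11.54 ± 0.19 in controls at 48 h and 11.01 ± 0.11 at 12 h, a difference of 0.53 (SE 0.16, 1.44-fold, limma's adjusted p 0.0391). PYCR1 averaged 9.44 ± 0.45 at 48 h and 8.49 ± 0.17 at 12 h, a difference of 0.94 (SE 0.32, 1.92-fold, adjusted p 0.0501). For ASNS, PCK2, PYCR1 and GOT1 every 48 h control lay above every 12 h control. ALDH18A1 averaged 10.46 ± 0.11 at 48 h and 10.60 ± 0.13 at 12 h, a difference of -0.14 (adjusted p 0.412).

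The background of this contrast was broad. Of the tested genes, 12.5% were called higher and 13.7% lower in controls at 48 h, where 3 of 5 enzymes were called higher and 0 lower. Wholly above their 12 h values were 4 of 5 enzymes and 24.9% of tested genes, and wholly below 0 of 5 and 25.2%. The enzymes' calls were also near the threshold. None of the 5 was called without CsA 12 h replicate 1, without any one of the 3 controls at 12 h, or without control 48 h replicate 1 or 2, and only GOT1 without CsA 12 h replicate 3. In those fits the adjusted p of ASNS was between 0.053 and 0.12 while its difference stayed between 2.63 and 3.18. GOT1 alone lost its call without CsA 12 h replicate 2 (0.053). PYCR1 was called without CsA 48 h replicate 1 (0.033) and without control 48 h replicate 3 (0.029). Without CsA 48 h replicate 3 the adjusted p was 0.00161 for ASNS, 0.0013 for PCK2, 0.00766 for GOT1 and 0.00833 for PYCR1, with 18.9% of genes called higher and 19.5% lower.

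In CsA-treated cells no enzyme was called between times, where 6.77% of genes were called higher and 7.58% lower at 48 h. ASNS averaged 11.03 ± 2.23 at 48 h and 10.87 ± 1.03 at 12 h (SD, n = 3 each), a difference of 0.15 (limma's adjusted p 0.929). The wide spread at 48 h is that of replicate 3. None of the 5 lay wholly above or below its 12 h values, against 16% and 18.9% of tested genes. Without CsA 48 h replicate 3, PCK2 was higher at 48 h by 1.41 (adjusted p 0.0127), PYCR1 by 0.85 (0.0217) and GOT1 by 0.47 (0.0227), with 19.6% of genes called higher and 17.4% lower. ASNS was then higher by 1.44, with an adjusted p of 0.0589.

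**Figure D3:**
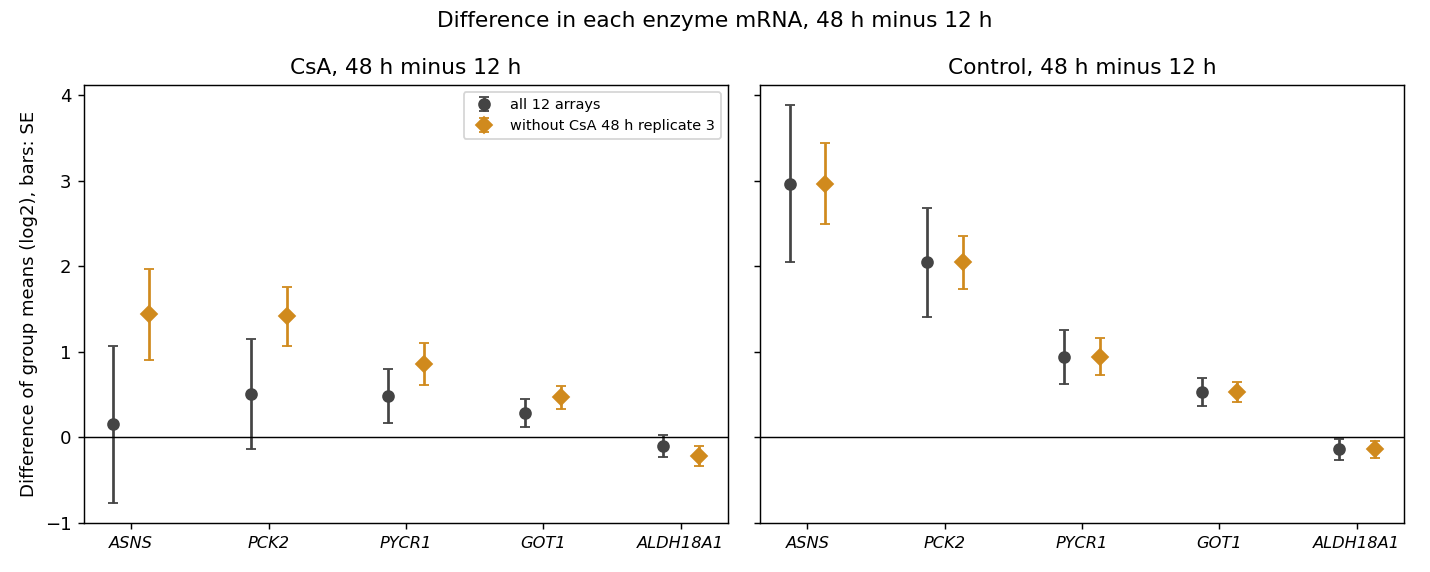
Difference in log2 expression, 48 h minus 12 h (vertical axis), for the 5 enzymes in CsA-treated cells (left) and controls (right), with SE bars, over all 12 arrays and without CsA 48 h replicate 3. The 2.97 of ASNS in controls stands against 0.15 in CsA-treated cells, or 1.44 without that array.

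Over all 12 arrays the order of the group means was the same for ASNS, PCK2, PYCR1 and GOT1. It was highest in controls at 48 h, then CsA at 48 h, CsA at 12 h and controls at 12 h. Neighbours in that order overlapped for all 4 genes, except CsA at 12 h and controls at 12 h for ASNS and PCK2. The order of the 48 h groups rested on CsA 48 h replicate 3: without it the CsA mean lay above the control mean for all 4 genes, by 0.25 for ASNS, 0.30 for PCK2, 0.17 for PYCR1 and 0.02 for GOT1. ALDH18A1 followed another order, with all 4 means between 10.45 and 10.60.

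The enzymes differed greatly in how far they moved. Over the 12 arrays ASNS spanned 3.97 on the log2 scale, a wider range than 99.4% of tested genes, and PCK2 2.95, wider than 97.6%. PYCR1 spanned 1.49 (80.1%), GOT1 0.81 (40.8%) and ALDH18A1 0.49 (13.7%).

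Likeness between profiles was measured as the root mean square difference over the 12 arrays after each gene was centred on its own mean, so that small values mean alike in shape and size. It is a description, given without a test, and the 12 arrays fall in 4 groups that all genes share. The nearest gene to ASNS was SLC7A11, the cystine transporter, at 0.45, followed by ANK2, an ankyrin, at 0.52 and TUBE1, epsilon tubulin, at 0.53. The median over all tested genes was 1.49. PCK2 ranked 5 for ASNS, at 0.55.

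The nearest profiles to PCK2 were those of AARS1 at 0.18 and GARS1 at 0.24, which charge transfer RNAs with alanine and glycine, and the pseudogene HSD17B7P2 at 0.26, whose probes may also read its parent gene. For PYCR1 they were SH3YL1, ARFIP2 and STK24, each at 0.13. For GOT1 they were C5orf22, CNIH4 and MCU at 0.09 each, and for ALDH18A1 ACAA2 at 0.04, TST at 0.07 and AP2M1 at 0.07. The small values of GOT1 and ALDH18A1 go with their small own spread around the mean, 0.27 and 0.13.

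Regulators known to act on ASNS were read on the same arrays. ATF4, the activator, differed by 0.78, 0.61 and 0.65 in the 12 h pairs (CsA minus control), a mean of 0.68 (SE 0.26), and by 0.05, 0.04 and -0.74 in the 48 h pairs. ATF3, which ATF4 induces, differed by 1.04, 1.25 and 0.68 at 12 h and by -0.16, -0.67 and -3.61 at 48 h. DDIT3, also called CHOP, lay above control by 0.97, 0.61 and 0.53 in the 12 h pairs, with -0.09, -0.11 and -2.86 in the 48 h pairs.

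TRIB3, a pseudokinase that restrains ATF4, differed by 0.58, 0.63 and 0.66 at 12 h and by 0.06, -0.03 and -1.84 at 48 h. CEBPB, which binds the same ASNS element, differed by 0.10, 0.16 and 0.20 at 12 h and by -0.08, -0.16 and -1.23 at 48 h. None of the 5 regulators was called for CsA against control at either time (limma's adjusted p at least 0.999). For each, pair 3 at 48 h departed farthest downward, as it did for ASNS and PCK2. A further fit used the 12 h arrays alone, the replicate block and trended, robust moderation. Its adjusted p was 0.00123 for ATF4 and for TRIB3, 0.0175 for ATF3, 0.0199 for DDIT3 and 0.115 for CEBPB (limma). So 4 of the 5 were called higher in that fit, where 1.15% of tested genes were called higher and 0.314% lower.

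In controls all 5 regulators rose at 48 h relative to 12 h, where 12.5% of tested genes were called higher. The difference was 1.14 for ATF4 (limma's adjusted p 0.0114), 5.35 for ATF3 (0.00252), 4.81 for DDIT3 (0.00443), 1.91 for TRIB3 (0.0138) and 1.597 for CEBPB (0.0116), and only TRIB3's call was lost on leaving out an array, when control 12 h replicate 3 was omitted, or replicate 2 of the 48 h controls (adjusted p of up to 0.0507). In CsA-treated cells ATF3 and DDIT3 were called between times, at 2.89 (0.0439) and 3.09 (0.0384), where 6.77% of tested genes were called higher. Those calls held in 6 and 8 of 18 alternatives, with adjusted p of up to 0.145 and 0.127. Without CsA 48 h replicate 3 TRIB3 (1.36, 0.00109) and CEBPB (1.46, 0.0014) were called as well, with 19.6% of tested genes called higher.

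**Figure D4:**
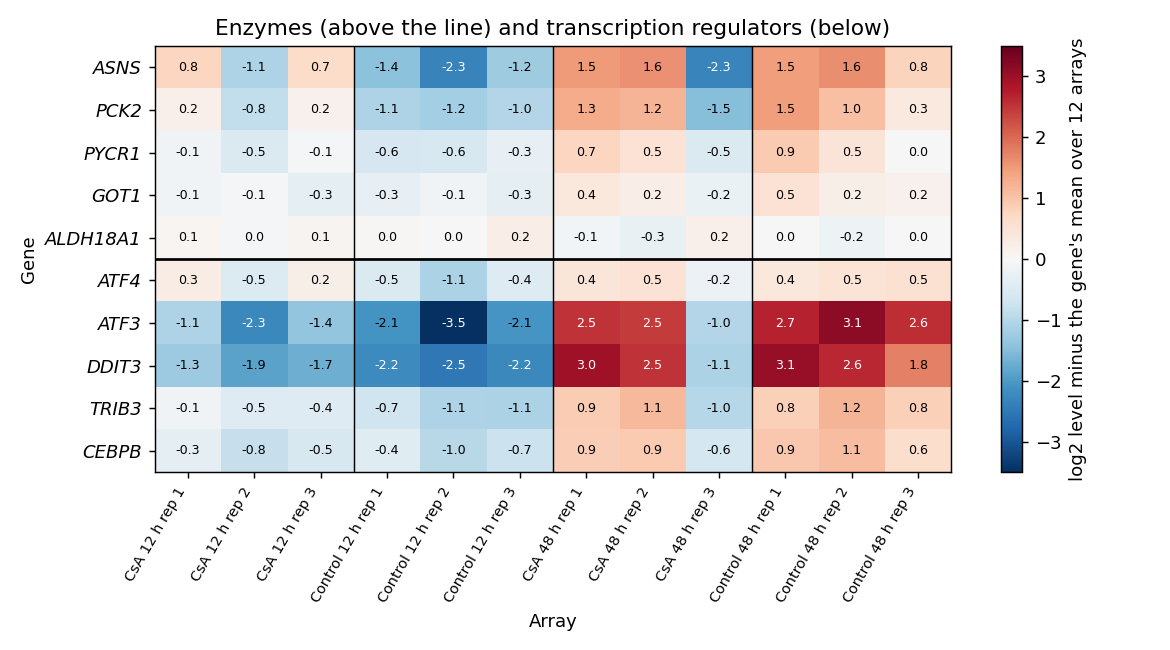
Log2 expression minus each gene's mean over the 12 arrays (colour and printed value) for the 5 enzymes and, under the line, the 5 regulators, with CsA left of control at each time. CsA 48 h replicate 3 is below 0 for ASNS, PCK2, PYCR1, GOT1 and all 5 regulators, while both other CsA 48 h arrays are above 0 for them.

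A wider list of 48 enzymes and carriers of the same pathways was set beside the members: 43 had a named probe set and 32 were tested. At 12 h, 0 of 32 were called in either direction, 15 were above 0 and 17 below, and the median difference was -0.01, close to that of all tested genes. BCAT1, which starts the breakdown of branched-chain amino acids in the cytosol, differed most in size among the 4 strongest, by 0.92, 0.56 and 0.72 in the pairs (mean 0.73, SE 0.57). In the fit of the 12 h arrays with block, trend and robust moderation it was the only one of the 32 called (adjusted p 0.00719, limma).

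The other 3 were PRODH, which oxidises proline, at 0.36 (SE 0.19), its relative PRODH2, which acts on hydroxyproline, at 0.12 (SE 0.10), and GOT2, the mitochondrial partner of GOT1, at -0.14 (SE 0.11). At 48 h again 0 of 32 were called, 10 were above 0 and 22 below, with a median of -0.07. The strongest there were KYAT1, a kynurenine aminotransferase, at -0.38 (SE 0.19), and the malic enzymes ME1 at -0.31 (SE 0.18) and ME2 at -0.26 (SE 0.15). Next was the mitochondrial malate dehydrogenase MDH2 at -0.11 (SE 0.085). KYAT1 lay between 4.11 and 5.34 on the 12 arrays, near the filter value of 4. Its pairs at 48 h differed by -0.32, -0.02 and -0.81, and its highest value was that of control 48 h replicate 3. In the interaction 0 of 32 were called. The strongest were ME1 at -0.50 (SE 0.26), GOT2 at 0.21 (SE 0.15), BCAT1 at -1.06 (SE 0.81) and ME2 at -0.28 (SE 0.22).

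Between times, 3 of the 32 were called higher and 3 lower in controls at 48 h, against the 12.5% and 13.7% of all genes. PRODH was higher by 2.11 (limma's adjusted p 0.000939) and ASS1, which joins aspartate to citrulline, by 1.13 (0.00255), while GOT2 fell by 0.53 (0.00825) and the pyruvate kinase PKM by 0.67 (0.0109). Both others, named after their values were seen, were ARG2, the mitochondrial arginase, at 3.34 (0.0183) and AADAT, an aminoadipate aminotransferase, at -0.71 (0.0384). The calls of ARG2 and AADAT were lost without 5 and 6 arrays, at an adjusted p of up to 0.07 and 0.13.

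In CsA-treated cells 2 of the 32 were called higher at 48 h, where 6.77% of all genes were, PRODH by 1.78 (limma's adjusted p 0.00282) and ASS1 by 1.10 (0.00562), and 3 lower, where 7.58% were, AADAT by -0.78 (0.0422), PKM by -0.77 (0.0104) and, named after its values were seen, the aspartate and glutamate carrier SLC25A13 by -0.40 (0.0481). Without CsA 48 h replicate 3 the count was 12, with 19.6% of all genes called higher and 17.4% lower, and without any one of the others it was 3 or 4, AADAT and SLC25A13 being the calls that were lost. PRODH, the enzyme that runs opposite to PYCR1 in the proline cycle, thus differed by 1.78 in CsA-treated cells and by 2.11 in controls, where PYCR1 differed by 0.48 and by 0.94.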

How the data were processed

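HK-2 cells were measured in 4 groups of 3 on Affymetrix arrays. The deposited values are log2, read as such from the values; GCRMA was used, per the submitters' processing notes, and its version is not given in the sources used here. They were used as deposited. Of 54675 probe sets, 41091 carried exactly 1 gene symbol, giving 19775 genes, each read from its highest-mean probe set. The 10508 genes above 4 on all 3 arrays of some group were tested with limma 3.58.1 (R 4.3.3) on 4 group means over 12 arrays, 8 residual degrees of freedom, two-sided, with Benjamini-Hochberg adjustment over all of them and a threshold of 0.05. The number of arrays limits the precision. The replicate block was an alternative: same-numbered CsA and control arrays correlated in their deviations at 0.37, 0.53 and 0.59 at 12 h and at 0.78, 0.54 and 0.74 at 48 h, a pairing that comes from the data. Other alternatives varied the filter, probe set choice, array centring, moderation and arrays used. Members, regulators and the wider list were chosen with earlier results of these data known. All members and regulators were named, the 4 of the wider list with the largest moderated statistic in each comparison, and the 3 genes nearest in profile to each member. The fit was tested on simulated data.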

Additional observations from a re-analysis of the deposited data

Results flagged for a closer look

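These 4 results were picked out because all 3 pairs differed one way at 12 h and all 3 the other way at 48 h, PRODH2 in pair 2 by only -0.0001. They were ATF3, with an interaction of -2.47 (SE 1.17), DDIT3 with -1.72 (SE 1.20), CEBPB with -0.64 (SE 0.51) and PRODH2 with -0.15 (SE 0.15). Tested as an interaction, none of the 4 passed (limma's adjusted p 1 for each). ARG2 of the wider list met the same rule but was not among them. It differed by 0.57, 0.15 and 0.30 at 12 h and by -0.02, -0.31 and -1.94 at 48 h. The ARG2 interaction was -1.10 (SE 1.19) and was not called. How many of all tested genes meet the rule was not counted. In all 4, and in ARG2, pair 3 at 48 h, which holds CsA 48 h replicate 3, was the largest of the 48 h differences. In PRODH2 it was only -0.05.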

How the results depend on the processing

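At 12 h the count of genes called for CsA against control, 0 over all arrays, was 3 with the replicate block, 1 with no filter on low values, 1 with the 12 h arrays only and no block, 5 with the block there, 154 with block, trend and robust moderation, and 39 with the 48 h pair 3 left out and the block, a setting chosen after seeing the data. In both of these last settings 1 member (ASNS) and 1 related enzyme (BCAT1) were called. The interaction called 6 genes with the 48 h pair 3 left out and the replicate block. Among the regulators at 12 h, ATF4, ATF3, DDIT3 and TRIB3 were called with block, trend and robust moderation, and ATF4 and TRIB3 with the block and the 48 h pair 3 left out. The block changed no other call of a member, a regulator or an enzyme of the wider list. For the genes nearest in profile, calls in these settings are not given here. Between times in controls, 0 members were called with no filter, and with the 48 h pair 3 left out 4835 genes and 14 related enzymes were called. In CsA-treated cells the corresponding count was 988 genes with no filter, 4485 genes, 3 members and 14 related enzymes with that pair left out, and 3 related enzymes called with no filter or with arrays centred on their median.

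Leaving out 1 array at a time, genes called between times ranged from 432 to 3885 in CsA-treated cells and from 1322 to 4039 in controls, members called from 0 to 3 and from 0 to 4, and related enzymes called from 3 to 12 and from 4 to 14. The members' 48 h differences, CsA minus control, ranged from -1.71 to 0.25 for ASNS, -1.10 to 0.30 for PCK2, -0.46 to 0.17 for PYCR1, -0.29 to 0.02 for GOT1 and -0.12 to 0.10 for ALDH18A1. They ranged from -0.36 to 0.01 for ATF4, -1.77 to 0.26 for DDIT3, -1.0 to 0.07 for TRIB3, -0.75 to 0.01 for CEBPB, -0.88 to 0.44 for BCAT1 and -0.07 to 0.14 for PRODH. At 12 h ALDH18A1 ranged from -0.10 to 0.03, MDH2 from -0.06 to 0.01 and ME2 from -0.07 to 0.13. The ALDH18A1 interaction ranged from -0.07 to 0.14. In CsA-treated cells the difference between times ranged from -0.22 to 0.0001 for ALDH18A1 and from -0.52 to 1.44 for ASNS. With the 48 h pair 3 left out, with or without the block, the 48 h difference was 0.04 for ATF4, 0.02 for TRIB3 and 0.18 for BCAT1, and the ALDH18A1 interaction -0.05. Arrays centred on their median gave 0.03 for ALDH18A1 and 0.00 for PRODH2 at 48 h, and the mean of all probe sets gave 0.04 for MDH2 at 12 h and 0.01 at 48 h. Apart from the values tied to the left-out array, the cause was not tested. With 3 arrays in each group precision is limited, and the printed intervals hold for the fit over all 12 arrays without the block. Other fits had other widths. For ASNS at 12 h the SE was 0.92 in that fit. It was 0.16 in the 12 h arrays with block, trend and robust moderation.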
